A study of Mus musculus with 12 samples.

Results

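The genes described are 8 matrix metalloproteinases (MMPs) and 2 tissue inhibitors of metalloproteinases (TIMPs): Mmp2, Mmp3, Mmp8, Mmp9, Mmp10, Mmp12, Mmp13, Mmp14, Timp1 and Timp3. They were taken by symbol from a table of 19702 genes; all 10 were present, and all 10 were among the 16124 genes with enough counts to be tested. RNA from whole mouse corneas was sequenced in 12 libraries, 3 in each of 4 groups, and every library held the pooled RNA of 6 corneas (3 mice). In Control there was neither injury nor treatment. The Vehicle group was injured with benzalkonium chloride (BAK), a preservative of eye drops that is toxic to the ocular surface, and is labelled as having had no treatment. UCS and UCPRP corneas were injured with BAK as well and received drops of UCS or UCPRP, abbreviations that the labels do not expand; the series title describes them as biologics from cord blood. BAK was given to each eye as 5 µl of a 0.2% solution once a day for 14 days, and the drops as 5 µl at 20%, 3 times a day for 10 days. The strain, sex and age of the mice, the order of the BAK and drop days, the time of harvest and any drops given to Vehicle eyes were not given in the sources used here.

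MMPs are zinc-dependent enzymes that cut the proteins of the extracellular matrix and many proteins of the cell surface. They are secreted or membrane-bound as inactive precursors, are activated when their prodomain is cut away, and are held in check by TIMPs, which bind the active site. In the cornea MMPs take part in shedding and migration of the epithelium and in remodelling of the collagen stroma after a wound, and an excess of MMP over TIMP activity is known from corneal ulceration. RNA levels, which were measured here, report neither activation of the precursors nor inhibition by TIMPs.

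Mmp13, Mmp12, Mmp3, Mmp10 and Mmp8 lie in a cluster of MMP genes on mouse chromosome 9. The sequences around the starts of 4 of them are shown because these carry a match to the binding motif of AP-1. AP-1 stands for the Fos and Jun transcription factors known to drive MMP genes. Each line gives 120 bases before the annotated start and 10 after it, on the plus strand of GRCm38.p6, from RefSeq. Capitals mark matches to TGANTCA, the AP-1 motif, searched on both strands. The other capitals mark TATAAA, the letters of the TATA box of core promoters, also searched on both strands. Timp1 is shown as a gene that rose without a match to TGANTCA or TATAAA. Variants of these motifs were not searched for, in Timp1 or in the others.
Mmp13, chr9:7272394-7272523: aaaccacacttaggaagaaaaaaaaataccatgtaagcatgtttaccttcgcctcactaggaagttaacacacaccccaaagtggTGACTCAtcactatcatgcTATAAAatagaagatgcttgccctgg
Mmp12, second start, chr9:7347254-7347383: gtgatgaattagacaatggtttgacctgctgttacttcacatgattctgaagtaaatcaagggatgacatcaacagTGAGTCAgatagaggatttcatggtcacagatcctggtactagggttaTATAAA
Mmp3, chr9:7445702-7445831: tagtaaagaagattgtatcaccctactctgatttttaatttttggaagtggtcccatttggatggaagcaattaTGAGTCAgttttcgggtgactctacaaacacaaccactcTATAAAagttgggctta
Mmp10, chr9:7502222-7502351: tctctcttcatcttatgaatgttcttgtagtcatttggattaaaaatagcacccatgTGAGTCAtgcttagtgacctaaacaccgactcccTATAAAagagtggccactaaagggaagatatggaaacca
Timp1, chrX:20870046-20870175: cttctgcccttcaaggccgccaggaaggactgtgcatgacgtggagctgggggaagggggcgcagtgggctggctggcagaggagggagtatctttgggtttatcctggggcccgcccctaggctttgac
The AP-1 match began 35 bases before the start in Mmp13, 46 before in Mmp3, 63 before in Mmp10 and 44 before in the second start of Mmp12. Promoter windows of 300 bases were at hand for 8 of the 10 genes, 9 windows in all, and 4 windows held TGANTCA, as did 7.81% of all 32851 windows of this length. TATAAA was in 13.6% of all windows and in 5 of these 9. It began 16 bases before the annotated start in Mmp13, 7 before in Mmp3 and 29 before in Mmp10, in the second start of Mmp12 it began 4 bases after the annotated start, and the Mmp8 window, which had no TGANTCA, held it on the other strand. The windows of Mmp8, Mmp14, Timp1, Timp3 and the first start of Mmp12 held no TGANTCA. A letter match is a description and does not show that a factor was bound.

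Library totals ran from 18.55 to 20.44 M estimated counts, and 3 counts, the limit that a count of 0 allows, were worth 0.147 to 0.178 counts per 1 M counts (CPM, scaled by TMM). Unless another method or set of libraries is named, p-values are from the quasi-likelihood F test of edgeR over all 12 libraries. These have Benjamini-Hochberg adjustment over 16124 genes. Called genes are those with an adjusted p under 0.05. The libraries of a group were separate pools, whose counts differed by at least 16 times the variance of counting error. Markers of corneal epithelium summed to 40648 to 84306 CPM in Control and to 11508 to 15187 CPM over the injured libraries. Of these 8 genes 7 were called lower in Vehicle than in Control and 1, Krt14, was called higher. Over all genes 6.92% were called lower and 9.58% higher. RNA of neighbouring tissue was present in every group: retinal markers summed to 2395 to 14366 CPM over all libraries and lens markers to 191 to 30883 CPM. Clock genes split the libraries as well. Dbp, a clock-controlled transcription factor, was at 14.7 to 25.9 CPM in Control 3, Vehicle 1, Vehicle 2 and UCS 1, and at 139 to 280 CPM in the other 8, so that Vehicle 3 was the only Vehicle library of the high-Dbp class.

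In corneas injured with BAK and given neither UCS nor UCPRP, 8 of the 10 genes were higher than in Control and none was lower. Mmp13, Mmp8 and Mmp9 showed the largest changes, Timp1 rose with them, Mmp14 rose least, and Mmp10 and Timp3 did not pass the test. Over all genes tested, 9.58% were called higher, 6.92% lower and 16.5% in either direction. The median log2 fold change was 2.87 over the 10 genes and 0.00 over all genes. Within the high-Dbp libraries Vehicle 3 alone stood against 2 Control libraries, and within the low-Dbp libraries 2 Vehicle libraries stood against Control 3 alone, the lone library being assumed to vary like the rest. Called higher were 4 of the 10 in the first case (Mmp2, Mmp9, Mmp13 and Timp1, with 2.39% of all genes) and 3 in the second (Mmp9, Mmp12 and Timp1, with 0.794%). Calls were lost there with log2 fold changes near those over all libraries for some genes, such as 5.44 for Mmp13, 5.09 for Mmp8, 2.77 for Mmp3 and 1.52 for Mmp2 in low-Dbp libraries. In high-Dbp libraries Mmp8 was at 3.21, Mmp12 at 2.46 and Mmp3 at 1.91. Both treated groups had 6 of the 10 higher than Control (Mmp2, Mmp3, Mmp9, Mmp12, Mmp13 and Timp1), where 6.4% of all genes were called higher in UCS and 5.3% in UCPRP. Without any overlap with the Control libraries, 8 of the 10 were higher in Vehicle, 7 in UCS and 7 in UCPRP, as were 15.2%, 14.9% and 14.5% of all genes. These comparisons share the Control libraries, and those with Vehicle share the Vehicle libraries, so their values are set side by side and not compared with each other.

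**Figure D1:**
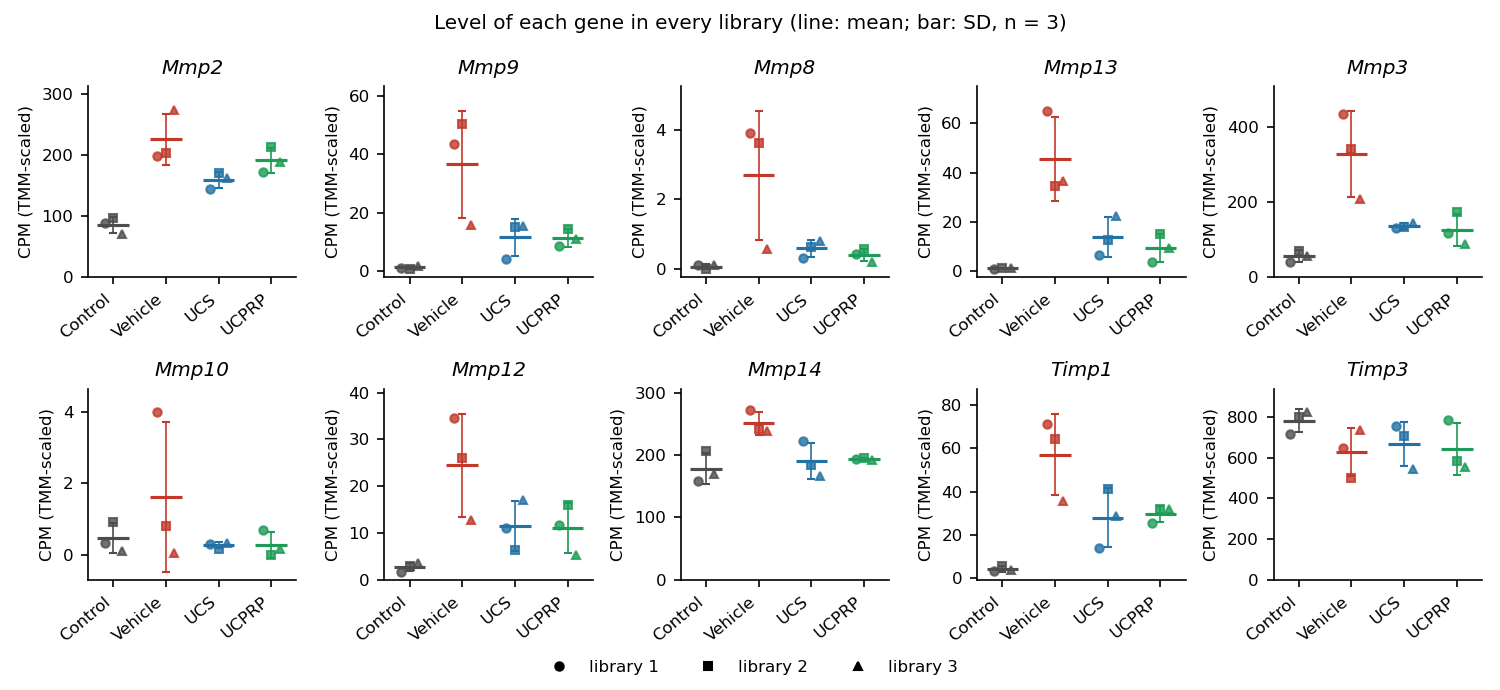
Level of each gene in CPM (TMM-scaled, linear axes that differ between panels) in every library of the 4 groups; points are libraries, lines the mean and bars the SD (n = 3). For Mmp2, Mmp3, Mmp8, Mmp9, Mmp12, Mmp13 and Timp1, all 9 injured libraries lie above all 3 Control libraries.

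Of the gelatinases, which cut denatured collagen and the collagen IV of basement membranes, Mmp2 is the form made constitutively by stromal cells. Mmp2 (chromosome 8, 92827290 to 92853421) measured 87.9, 96.6 and 69.8 CPM in Control, 198, 203 and 274 in Vehicle, 144, 170 and 162 in UCS and 171, 213 and 187 in UCPRP. All injured libraries were above all Control libraries, and Vehicle 3 was the highest of all. The log2 fold change of Vehicle over Control was 1.41 (SE 0.162, adjusted p = 0.000239), that of UCS over Control 0.91 and that of UCPRP over Control 1.17. Against Vehicle, UCS had a log2 fold change of -0.50 (95% interval -0.85 to -0.15, adjusted p = 0.894), without overlap between the libraries, and UCPRP one of -0.24 (-0.59 to 0.11, adjusted p = 0.666), with overlap.

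Mmp9, the inducible gelatinase of neutrophils, macrophages and migrating epithelium, is the MMP most measured in tears. It lies on chromosome 2 (164940326 to 164955850). Its levels were 1.18, 0.771 and 1.86 CPM in Control, 43.5, 50.6 and 15.8 in Vehicle, 4.09, 15 and 15.5 in UCS and 8.48, 14.4 and 10.8 in UCPRP. Vehicle 3 stood at 0.336 times the mean of the other Vehicle libraries, just above the highest UCS library, so that the groups barely failed to overlap. Vehicle exceeded Control by a log2 fold change of 4.83 (SE 0.616, adjusted p = 0.000397). The same value was 3.16 for UCS (adjusted p = 0.00555) and 3.13 for UCPRP (adjusted p = 0.00668). Against Vehicle it was -1.66 (-2.79 to -0.54) for UCS and -1.70 (-2.83 to -0.58) for UCPRP, with adjusted p of 0.894 and 0.359.

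Collagenases cut the intact triple helix of fibrillar collagen. Mmp13 is the main collagenase of rodents, in which it does much of the work that MMP1 does in other mammals. In Control it was low, at 0.721, 1.07 and 1.14 CPM. It measured 65.2, 34.4 and 36.6 CPM in Vehicle, 6.38, 12.6 and 22.4 in UCS and 3.47, 14.8 and 9.10 in UCPRP. The 4 groups formed 3 levels without overlap, with Control lowest, the treated libraries between and Vehicle highest. Of the 10 genes it had the largest log2 fold change between Vehicle and Control, 5.53 (SE 0.641, adjusted p = 0.000244). UCS exceeded Control by 3.82 and UCPRP by 3.22 on the log2 scale, with adjusted p of 0.00244 and 0.00688. Against Vehicle the log2 fold changes were -1.72 (-2.83 to -0.60, adjusted p = 0.894) in UCS and -2.31 (-3.46 to -1.17, adjusted p = 0.331) in UCPRP.

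Mmp8, stored in the granules of neutrophils and known as neutrophil collagenase, was below the level of 3 counts in every Control library. It measured 0.103, 0 and 0.104 CPM there, 3.92, 3.61 and 0.562 in Vehicle, 0.319, 0.643 and 0.817 in UCS and 0.427, 0.565 and 0.206 in UCPRP. Vehicle 1 and 2 stood far above every other library, while Vehicle 3 lay within the range of the treated groups. Summed over libraries there were 161 counts in Vehicle against 4 in Control, a ratio of 37.6 with a 95% interval of 14.4 to 140 that covers counting error only. The fitted log2 fold change of 5.12 (SE 0.893) had an adjusted p of 0.00249. UCS and UCPRP, with 34 and 23 counts, were above Control in every library but did not pass (log2 fold changes 2.94 and 2.38, adjusted p = 0.0827 and 0.183); DESeq2 called the UCS difference, with an adjusted p of 0.0279. Against Vehicle the log2 fold changes were -2.17 in UCS and -2.74 in UCPRP, with adjusted p of 0.894 and 0.331.

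Stromelysins cut proteoglycans, fibronectin and laminin and activate other MMP precursors. Mmp3, stromelysin 1, is the one that stromal cells make in inflamed tissue. It measured 39.7, 69.9 and 56.5 CPM in Control, 436, 341 and 206 in Vehicle, 130, 134 and 145 in UCS and 116, 172 and 87.5 in UCPRP. As with Mmp13, every treated library fell between the highest Control and the lowest Vehicle library. The log2 fold change of Vehicle over Control was 2.57 (SE 0.316, adjusted p = 0.000326), those of UCS and UCPRP over Control were 1.30 and 1.18 (adjusted p = 0.0179 and 0.0302). The last pair of calls was lost without Control 1 (adjusted p = 0.0737 in UCS and 0.101 in UCPRP) or Control 3 (0.0560 and 0.0818). The UCS call was also lost without UCS 3 (0.0606). The UCPRP call was also lost without UCPRP 1 (0.0615) or UCPRP 2 (0.122), and in edgeR with only UCPRP and Control fitted (0.0572). In high-Dbp libraries the log2 fold changes over Control were 1.34 in UCS and 1.19 in UCPRP. UCS differed from Vehicle by -1.27 on the log2 scale (-1.93 to -0.60, adjusted p = 0.894) and UCPRP by -1.39 (-2.05 to -0.72, adjusted p = 0.331). For the mean of both treated groups against Vehicle the value was -1.33 (-1.87 to -0.78), the 10th smallest p of all genes, with an adjusted p of 0.207.

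Mmp10, stromelysin 2, is known from the migrating edge of healing epithelium. It was close to the floor in most libraries, at 0.343, 0.932 and 0.114 CPM in Control, 4.0, 0.822 and 0.0582 in Vehicle, 0.299, 0.179 and 0.342 in UCS and 0.702, 0 and 0.155 in UCPRP. One library, Vehicle 1, accounts for the higher Vehicle mean, and all groups overlapped. The log2 fold change between Vehicle and Control was 1.79 (-0.74 to 4.33, adjusted p = 0.354), and it was -0.053 without Vehicle 1. The deposited counts of Mmp3 and Mmp10 had decimals in 11 of 12 libraries, all but UCPRP 2, and in those 11 they added up to a whole number within 0.015, as values do when reads are divided between a pair of genes, so the small Mmp10 values in particular are uncertain.

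Mmp12, the macrophage elastase, measured 1.70, 2.97 and 3.47 CPM in Control, 34.6, 26.0 and 12.8 in Vehicle, 11, 6.43 and 17.1 in UCS and 11.7, 15.9 and 5.30 in UCPRP. Injured libraries were all above Control, and Vehicle 3 lay within the range of the treated libraries. Vehicle exceeded Control by a log2 fold change of 3.17 (SE 0.523, adjusted p = 0.00175). UCS and UCPRP exceeded it by 2.09 and 2.01, with adjusted p of 0.0226 and 0.0284. Both of these calls were lost without Control 1 (adjusted p = 0.0911 in UCS and 0.0991 in UCPRP) or Control 2 (0.0717 and 0.0881) and with limma-voom (0.114 and 0.137). The UCS call was lost without UCS 3 as well (0.0954), and the UCPRP call without Control 3 (0.0566), UCPRP 1 (0.0712) or UCPRP 2 (0.106). Neither differed from Vehicle past the test (log2 fold changes -1.09 and -1.16, adjusted p = 0.9998 and 0.472).

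Mmp14 is anchored in the cell membrane, where it cuts collagen and activates the Mmp2 precursor. It moved least of those that passed: 158, 207 and 171 CPM in Control, 274, 243 and 239 in Vehicle, 223, 185 and 166 in UCS and 194, 196 and 193 in UCPRP. The 3 Vehicle libraries were above the other 9, and the treated libraries overlapped with Control. The log2 fold change of Vehicle over Control was 0.50 (SE 0.133, adjusted p = 0.0256). This call was lost without Control 1, Control 3 or Vehicle 1 (adjusted p = 0.0922, 0.0761 and 0.0894). It was also lost in edgeR with a term for high or low Dbp (0.0579) and with only Vehicle and Control fitted (0.0566). UCS and UCPRP had log2 fold changes of 0.10 and 0.12 over Control, with intervals of -0.19 to 0.39 and -0.17 to 0.41. Against Vehicle they measured -0.40 (-0.69 to -0.10, adjusted p = 0.894) and -0.37 (-0.67 to -0.08, adjusted p = 0.410), without overlap.

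Timp1, the inducible inhibitor, is secreted by fibroblasts, epithelium and leukocytes during inflammation. It measured 3.30, 5.69 and 3.88 CPM in Control, 71.3, 64.4 and 35.7 in Vehicle, 14.1, 41.4 and 28.5 in UCS and 25.6, 31.8 and 32.2 in UCPRP. Control was lowest in every case, UCPRP lay wholly below Vehicle, and UCS 2 was above Vehicle 3. Vehicle exceeded Control by a log2 fold change of 3.74 (SE 0.403, adjusted p = 0.000169), UCS by 2.71 (adjusted p = 0.00131) and UCPRP by 2.80 (adjusted p = 0.00119). The differences from Vehicle were -1.03 (-1.81 to -0.25) for UCS and -0.94 (-1.71 to -0.16) for UCPRP, with adjusted p of 0.894 and 0.449. Timp1 lies on chromosome X (20870166 to 20874737) within the synapsin gene Syn1, and whether counting used strand was not given in the sources used here.

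Timp3 is the inhibitor that stays bound to the matrix. Its levels were 717, 801 and 824 CPM in Control, 647, 500 and 735 in Vehicle, 754, 707 and 546 in UCS and 787, 585 and 555 in UCPRP, with overlap between all groups. The log2 fold change of Vehicle over Control was -0.32 (-0.74 to 0.11, adjusted p = 0.322), and no comparison of Timp3 passed the test. It lies on chromosome 10 (86300412 to 86349505) within Syn3, another synapsin gene. The deposited counts of Timp3 had decimals beyond 0.015 in 11 of 12 libraries, and those of Timp3 and Syn3 added up to a whole number in 0. Mmp14 counts had such decimals in 11 libraries as well, and with Mrpl52 they added up to a whole number in 1. How these reads were divided is not known.

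**Figure D2:**
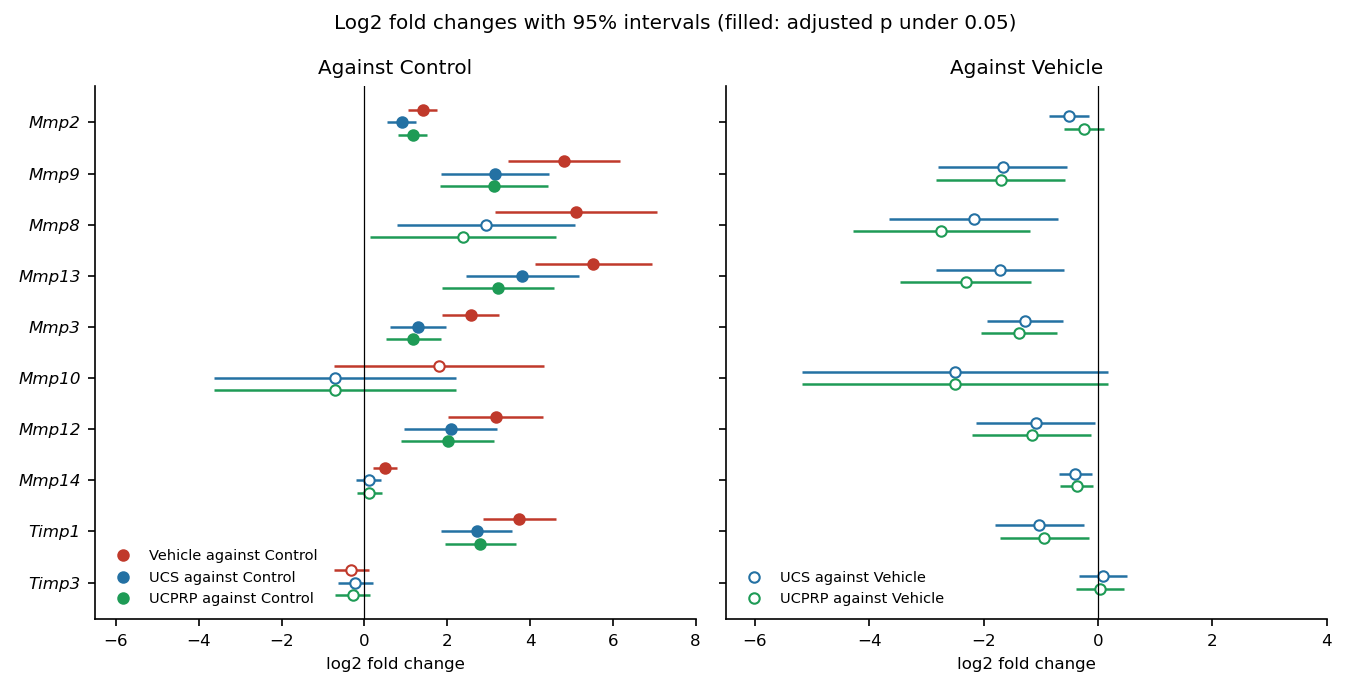
Log2 fold changes of each gene with 95% intervals, against Control (left: Vehicle, UCS and UCPRP) and against Vehicle (right: UCS and UCPRP); filled points passed the test and open points did not. Mmp13 reaches 5.53 in Vehicle against Control, and no point on the right is filled.

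Per kilobase of exon, which allows levels of different genes to be compared, Timp3 led in Control at 165 ± 11.9 CPM per kb (SD, n = 3). It was followed by Mmp14 (42.7 ± 6.02), Mmp3 (30.7 ± 8.41) and Mmp2 (27.5 ± 4.44), whose ranges overlapped from one to the next. Timp1 (4.83 ± 1.41) came next, and Mmp12, Mmp9, Mmp13, Mmp10 and Mmp8 were all under 1. In Vehicle the order changed. Mmp3 was at 182 ± 64.0 CPM per kb, overlapping with Timp3 at 133 ± 25.1, and Timp1 at 64.4 ± 21.3 overlapped with both Mmp2 (73.1 ± 13.7) and Mmp14 (60.2 ± 4.50). Mmp13 (17.0 ± 6.43), Mmp9 (11.5 ± 5.79) and Mmp12 (6.15 ± 2.76) followed, and Mmp8 and Mmp10 were near 1. In UCS and UCPRP Timp3 again led without overlap, at 142 ± 23.1 and 136 ± 26.8, ahead of Mmp3 at 75.5 ± 4.36 and 69.6 ± 23.9.

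The 8 MMPs together came to 103 ± 16.7 CPM per kb in Control, 352 ± 69.7 in Vehicle, 185 ± 6.04 in UCS and 188 ± 33.2 in UCPRP. Mmp14 made up 41.6% of that sum in Control and 17.4% in Vehicle, whereas Mmp3 made up 29.6% and 50.6%. These shares depend on the division by length: in CPM Mmp14 made up 55.1% and 27.7%, and Mmp3 16.9% and 35.1%. The sum of the MMPs over the sum of Timp1 and Timp3 was 0.603 in Control (0.541 to 0.690), 1.78 in Vehicle (1.44 to 1.96), 1.08 in UCS (0.943 to 1.29) and 1.12 in UCPRP (0.890 to 1.41). Each treated group lay between Control and Vehicle in this ratio without overlap. Timp2, which is not among the 10 genes, measured 100 ± 16.5 CPM per kb in Control and 140 ± 20.2 in Vehicle, levels near those of Timp3. With Timp2 added to the inhibitors, a choice made after the data were seen, the ratio was 0.378 in Control (0.358 to 0.412), 1.05 in Vehicle (0.796 to 1.18), 0.610 in UCS (0.545 to 0.710) and 0.595 in UCPRP (0.504 to 0.745), again without overlap of the treated groups with Control or Vehicle. Against Timp1 alone Control was highest and the injured groups overlapped: the ratio was 21.8 in Control (19.0 to 24.2), 5.71 in Vehicle (4.83 to 7.03), 7.05 in UCS (3.97 to 11.2) and 5.62 in UCPRP (4.52 to 6.31). Timp1 was 2.82% of both inhibitors in Control and 32.7% in Vehicle. These are sums of RNA levels over few genes and were not tested.

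**Figure D3:**
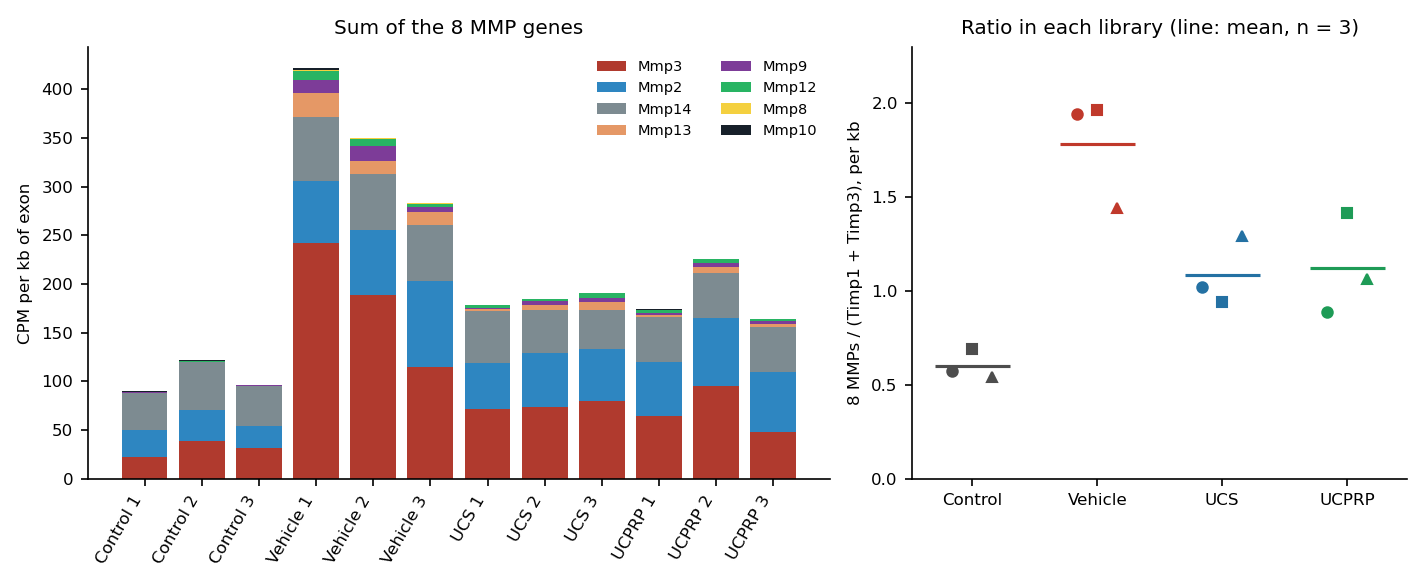
Left: CPM per kb of exon of the 8 MMPs, stacked, in each library. Right: their sum over the sum of Timp1 and Timp3 in each library, with the mean of each group as a line (n = 3). The Vehicle bars are the highest, at 283 to 422, and Mmp3 is the largest segment in each of them.

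The MMP genes of chromosome 9 span 427 kb (7272514 to 7699585) and hold 10 genes in the table. Between Vehicle and Control 4 of the 6 that could be tested rose: Mmp13, Mmp12, Mmp3 and Mmp8, each already described above. Of all genes tested 9.58% were called higher. Mmp10, described above, and Mmp27, a little-studied stromelysin-like gene, with a log2 fold change of 0.91 (adjusted p = 0.256), did not pass. Mmp1b, Mmp1a, Mmp7 and Mmp20 had too few counts: Mmp1b had 15 counts over the Vehicle libraries and 0 in Control, Mmp7, the matrilysin of epithelia, had 13 and 3, and Mmp20, the enamelysin of teeth, was at 0 in all 12 libraries. The counts of Mmp1a and Mmp1b had decimals in 1 library, Vehicle 1, where they added up to a whole number. Genes flanking the cluster moved less and in both directions. Dcun1d5 had a log2 fold change of -0.02 and Tmem123 one of -0.28, neither past the test, while Birc3, an inhibitor of apoptosis, rose by 0.75 (adjusted p = 0.0417) and Yap1, a Hippo pathway coactivator, fell by 0.59 (adjusted p = 0.0244).

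**Figure D4:**
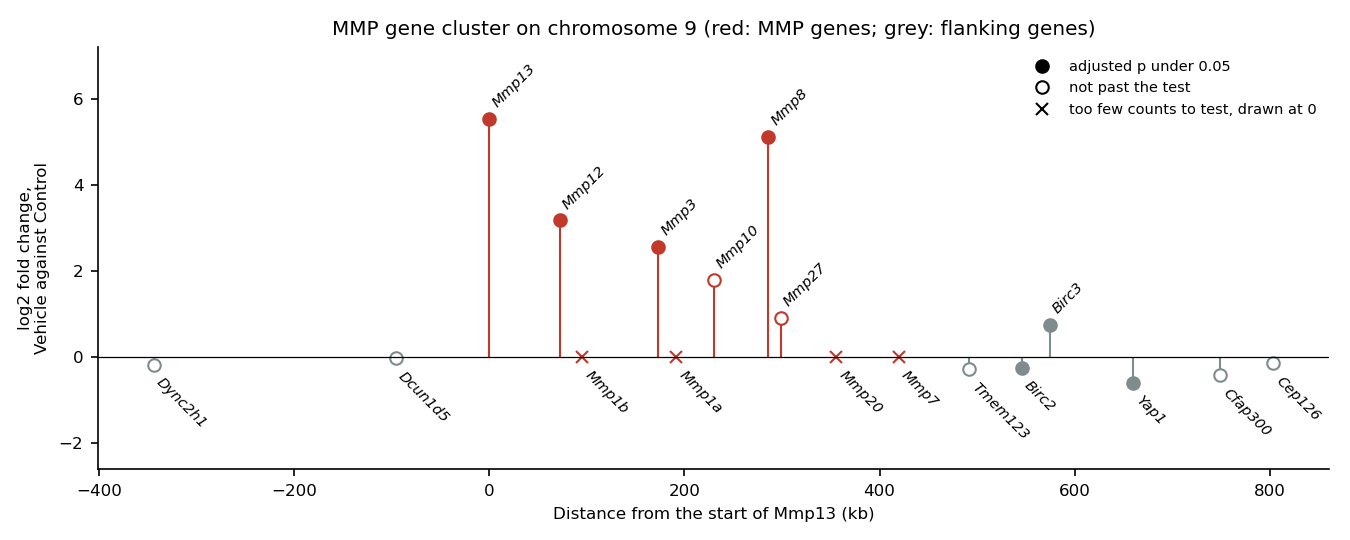
Log2 fold change of Vehicle over Control for the genes of the chromosome 9 MMP cluster (red) and its neighbours (grey), by distance in kb from the start of Mmp13; crosses had too few counts to be tested. The MMP genes that passed reach 2.57 to 5.53, and the neighbours that passed lie between -0.59 and 0.75.

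Of the 18 other MMPs and inhibitors, 12 could be tested, and 5 rose and 1 fell between Vehicle and Control, where 9.58% of all genes rose and 6.92% fell. Mmp25, a membrane MMP of leukocytes, rose by a log2 fold change of 2.63 (adjusted p = 0.0171), Mmp19 by 1.73 (adjusted p = 0.000499) and Mmp23 by 1.30 (adjusted p = 0.00633). Mmp15, a membrane MMP like Mmp14, rose by 0.88 and Timp2, which also takes part in activation of Mmp2, by 0.48, with adjusted p of 0.000936 and 0.0490. Mmp28, the epilysin of keratinocytes, fell by 1.09 (adjusted p = 0.00138): it measured 17.7 ± 1.21 CPM in Control and 8.30 ± 0.573 in Vehicle (SD, n = 3). In the treated groups Mmp28 was at 8.51 ± 2.14 CPM (UCS) and 8.44 ± 1.06 CPM (UCPRP), within the SD of Vehicle and of each other. Mmp15, at 30.3 ± 4.86 CPM in Control and 55.6 ± 6.06 in Vehicle, measured 62.3 ± 6.21 CPM in UCS and 53.3 ± 2.71 in UCPRP.

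The counts of the lists that follow stand beside the same 9.58% of all genes called higher and 6.92% called lower. Among genes that act on MMPs, activating proteases and their inhibitors had 10 of 21 tested higher and 1 lower in Vehicle than in Control, with a median log2 fold change of 0.52. Plaur, the urokinase receptor that gathers plasmin activity at the cell surface, rose by 3.39, Lcn2, the lipocalin that binds and stabilizes MMP9, by 2.79, and Serpinb2, a plasminogen activator inhibitor, by 2.64 on the log2 scale. A2m, a broad protease trap, was the gene that fell, from 905 ± 175 to 494 ± 146 CPM. Of inducers and transcription factors 6 of 23 were higher and 1 lower, with a median of 0.36. Il1b, an interleukin known to induce Mmp3 and Mmp9, rose by 5.76 on the log2 scale, and Runx2, a factor known to drive Mmp13, by 1.85. Osm, a cytokine of neutrophils and macrophages, also passed (adjusted p = 0.00413), with 272 counts over the Vehicle libraries against 2 in Control, a ratio of 127 (34.9 to 1056, counting error only). Of those 272 counts Vehicle 3 held 9. Fos, a subunit of AP-1, was the one that fell, from 36.0 ± 14.3 CPM to 19.6 ± 4.99 CPM.

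ADAM and ADAMTS proteases, relatives that shed membrane proteins or cut proteoglycans and procollagen, had 10 of 25 higher and 1 lower, with a median of 0.47. Adam12 rose by a log2 fold change of 3.87, Adam8, a leukocyte sheddase, by 3.55, and Adamts14, a procollagen N-proteinase, by 2.82. Of the MMP substrates 10 of 26 were higher and 2 lower, the latter a share near that over all genes, with a median of 0.18. Tnc, the wound glycoprotein tenascin C, rose by 4.15, and Col3a1, a fibrillar collagen of young scars, by 2.26. Those that fell were Col17a1 and Lama5, both of the epithelial basement membrane zone. Of cell surface and uptake partners 5 of 16 were higher and 3 lower, with a median of 0.17. Thbs2, which takes part in the clearance of MMP2, rose by 2.22, the integrin chain Itgb3 by 2.19 and Thbs1 by 1.28. By edgeR no gene of these lists was called against Vehicle in UCS, in UCPRP or in the mean of both. The same held for all 16124 genes tested (0% called).

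Over the 12 libraries, log2 levels of several of the 10 genes ran closely with each other, as a description across libraries that share the group structure. Pearson's r was 0.96 for Mmp9 with Timp1, 0.95 for Mmp3 with Mmp12 and 0.94 for Mmp9 with Mmp13. It was 0.04 for Mmp2 with Mmp10, and Timp3 ran against the others at -0.69 to -0.04. Among 12617 genes of at least 5 CPM, those nearest to Mmp9 were Cd300ld (0.988), Mmp19 (0.980) and Hcls1 (0.980), the last a protein of blood cells. Timp1 was nearest to the chemokine receptor Cxcr4 (0.983), Laptm5 (0.979) and keratin Krt14 (0.977). Mmp2 was nearest to the proteoglycan gene Bgn (0.982), Itgbl1 (0.978) and Masp1 (0.976), and Mmp3 to osteopontin, Spp1 (0.969), Pik3ap1 (0.967) and Igfbp3 (0.958). Mmp12 followed Igfbp3 (0.958), Bpifb1 (0.956) and Ampd3 (0.946), and Mmp13 followed Stk17b (0.966), Crabp2 (0.957) and Pik3r5 (0.954). The zinc transporters Slc39a1 (0.876) and Slc39a7 (0.875) and Calhm2 (0.869) were nearest to Mmp14, at lower r than for the genes above. Timp3 was nearest to Ggt1 (0.944), Sema3b (0.937) and Reln (0.927).

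Summed markers of neutrophils, macrophages and the conjunctiva were higher in Vehicle than in Control, as most of these MMPs and TIMPs were. In pooled tissue more cells of a type cannot be told apart from more RNA per cell. Neutrophil markers summed to 33.6 to 122 CPM in Control, 763 to 1395 in Vehicle, 377 to 959 in UCS and 294 to 435 in UCPRP. Of these 11 genes 6 could be tested and 5 were higher in Vehicle than in Control, and most of each sum was Ltf, lactoferrin, which was at 66.9 ± 41.2 CPM in Control and 830 ± 143 in Vehicle and is also made by glands of the ocular surface. S100a8, a calcium-binding protein abundant in neutrophils, measured 0.257, 0.356 and 0.414 CPM in Control, 48.8, 55.2 and 6.33 in Vehicle, 1.17, 3.32 and 10.2 in UCS and 7.58, 6.42 and 2.47 in UCPRP. Like Mmp8, it was far higher in Vehicle 1 and 2 than in any other library. Mpo, Elane and Ngp, of neutrophil precursors, were at 0 in Control, Elane in Vehicle, Mpo in UCS, and Mpo and Ngp in UCPRP. Macrophage markers summed to 387 to 576 CPM in Control, 1130 to 1456 in Vehicle, 981 to 1339 in UCS and 935 to 964 in UCPRP, none of the 12 at 0 and 11 of 12 higher in Vehicle. Fibroblast and myofibroblast markers summed to 1216 to 1871, 2197 to 3800, 2046 to 2745 and 2741 to 2989 CPM in the same order, with 3 of 8 higher in Vehicle. Markers of conjunctiva and goblet cells, the mucous epithelium next to the cornea, summed to 2681 to 6216 CPM in Control, 13060 to 18926 in Vehicle, 15330 to 19394 in UCS and 14290 to 18502 in UCPRP. None of these 8 genes was at 0, and 8 of 8 were higher than Control in Vehicle, in UCS and in UCPRP, with median log2 fold changes of 3.88, 3.58 and 3.22. Between Vehicle and Control none of 4 mast cell markers and none of 5 T and NK cell markers was called, and of 8 keratocyte markers 1 was higher and 2 were lower.

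Vehicle 3 had the lowest neutrophil sum of its group (763 CPM), the highest fibroblast sum (3800 CPM) and the highest skeletal muscle sum (1319 CPM, against 195 and 585 in the others). It was also the lowest of its group for Mmp3, Mmp8, Mmp9, Mmp10, Mmp12, Mmp14 and Timp1 and the highest for Mmp2 and Timp3. The part of leukocytes, fibroblasts, conjunctiva or surrounding tissue in the MMP and TIMP levels was not tested.

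**Figure D5:**
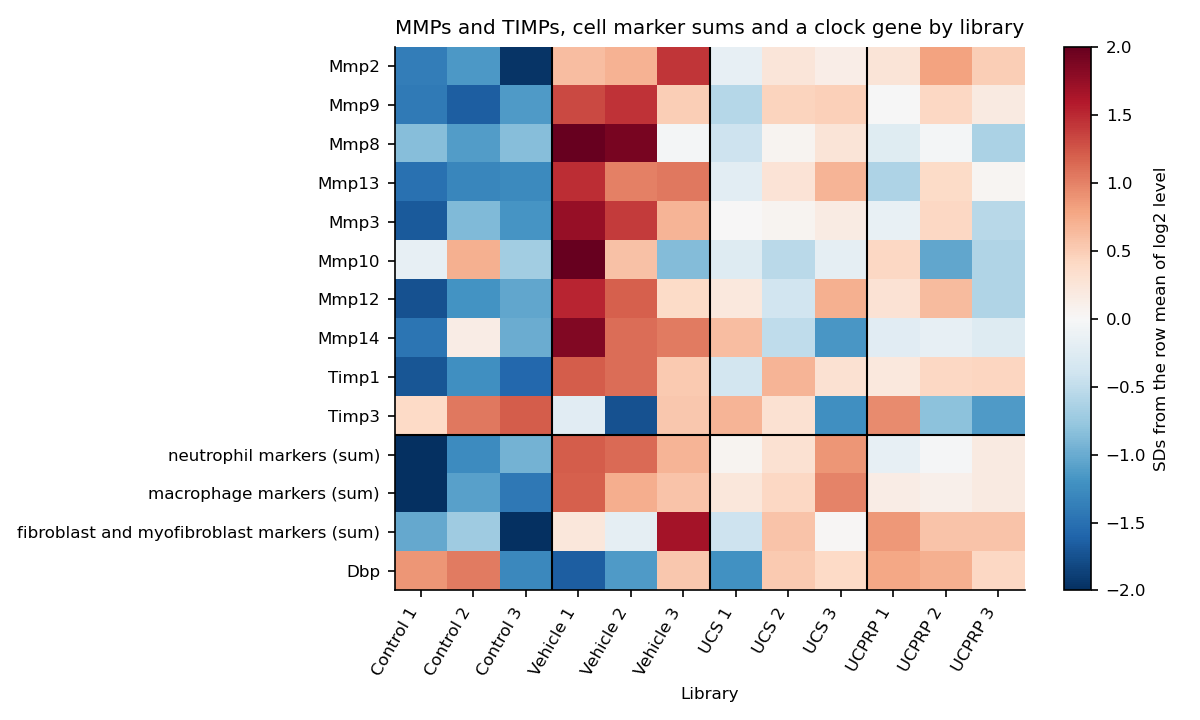
Log2 level of each gene, of the summed markers of 3 cell types and of the clock gene Dbp in each library, as SDs from the row's mean over 12 libraries (levels of single MMPs and TIMPs with 0.5 CPM added). Vehicle 3 is paler than Vehicle 1 and Vehicle 2 for Mmp8, Mmp9 and the neutrophil sum, and it is the Vehicle library with high Dbp.

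The question of the treated groups was whether UCS or UCPRP changed the injured cornea. None of the 10 genes was called between UCS and Vehicle or between UCPRP and Vehicle by edgeR, and neither was any other gene (0% of 16124). At an unadjusted p under 0.05 there were 8 of the 10 lower in UCS, where 3.27% of all genes were, and 7 of the 10 lower in UCPRP, where 6.54% were. In both comparisons 9 of 10 log2 fold changes were below 0 (51.6% of all genes in UCS and 44.7% in UCPRP). Their medians were -1.18 and -1.27, against -0.01 and 0.03 over all genes. Without overlap between libraries, 5 of the 10 were lower in UCS (Mmp2, Mmp3, Mmp9, Mmp13 and Mmp14), as were 4.45% of all genes. In UCPRP 5 were lower in this sense (Mmp3, Mmp9, Mmp13, Mmp14 and Timp1), as were 7.13% of all genes. Between the mean of both groups and Vehicle 4 were lower without overlap (Mmp3, Mmp9, Mmp13 and Mmp14, against 1.74% of all genes), 9 were lower at an unadjusted p under 0.05 (5.96% of all genes), and none was called (0% of all genes).

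DESeq2, on the same counts, called 1 of the 10 lower in UCS than in Vehicle (Mmp3, adjusted p = 0.0432) and 3 in UCPRP (Mmp3 and Mmp13, both at 0.00516, and Mmp8 at 0.0484), where it called 0.0682% and 0.879% of all genes lower. For the mean of both groups it called 4, with adjusted p of 0.0011 for Mmp3, 0.00348 for Mmp13, 0.0242 for Mmp9 and 0.0284 for Mmp8, with 0.912% of all genes called lower. Without Vehicle 3, edgeR called Mmp3 and Mmp8 lower in UCPRP (1.08% of all genes), those and Mmp9 lower in the mean of both (1.46%), and none in UCS. Within the high-Dbp libraries Vehicle 3 is the lone Vehicle library and is assumed to vary like the rest. Log2 fold changes against Vehicle were nearer to 0 there for Mmp3, Mmp8, Mmp9, Mmp12, Mmp13 and Timp1. They were -0.58 in UCS and -0.72 in UCPRP for Mmp3, 0.37 and -0.49 for Mmp8 and -0.05 and -0.49 for Mmp9. For Mmp12 they were -0.13 and -0.22, for Mmp13 -1.07 and -2.0 and for Timp1 -0.04 and -0.26. For Mmp2 they were farther from 0, at -0.73 and -0.52. Low-Dbp libraries held no UCPRP library, and UCS 1 alone stood there against Vehicle 1 and 2. In that class the log2 fold changes of UCS over Vehicle were farther from 0 than over all libraries. They were -1.58 for Mmp3, -3.53 for Mmp8, -3.52 for Mmp9, -1.46 for Mmp12, -2.96 for Mmp13 and -2.26 for Timp1. Mmp2 was at 144 CPM in UCS 1 and at 198 and 203 in Vehicle 1 and 2.

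UCPRP and UCS were not told apart. None of the 10 genes was called between them, as for all genes (0%), and none had an unadjusted p under 0.05, as 2.44% of all genes did. The largest differences were in Mmp13, with a log2 fold change of UCPRP over UCS of -0.59 (95% interval -1.71 to 0.52), Mmp8 with -0.57 (-2.22 to 1.09) and Mmp2 with 0.26 (-0.09 to 0.61). Mmp2 was the gene whose libraries did not overlap, being higher in UCPRP, as 4.91% of all genes were. Another 5.75% of all genes, and 0 of the 10, were lower in UCPRP without overlap. The intervals were widest for Mmp10 (-2.21 to 2.21) and narrowest for Mmp14 (-0.27 to 0.31), so equal levels are not shown for any of them.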

How the data were processed

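The deposited table holds estimated counts for each gene in each library (read counts per the file headers), not scaled to library size, and 64.9% of the deposited values were whole numbers. Per the labels' protocols, the library kit was TruSeq Stranded Total RNA. HISAT and the build GRCm38 are named, without versions, per the submitters' processing notes. How reads were counted, with which annotation and whether by strand, was not given in the sources used here.

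Values were rounded to whole numbers, filtered with filterByExpr (minimum count 10), scaled by TMM and tested with edgeR 4.0.16 (robust glmQLFit, glmQLFTest) in R 4.3.3, with 1 term per group over all 12 libraries. The standard error is the absolute log2 fold change over the square root of F, and intervals are 95%. DESeq2 1.42.0 and limma 3.58.1 (voom) were alternatives. The edgeR procedure was run on counts simulated with the spread that it had fitted to these data. They held no Dbp split and no outlying library, so the run does not test for effects of these. Exon lengths come from GENCODE M21 and coordinates and promoters from RefSeq, both on GRCm38; all 10 genes matched.

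The 10 genes, the gene lists and the comparisons were chosen with earlier results of these data known. Genes named from each list were the 3 largest changes past the test in Vehicle against Control. One gene that this rule names is not reported here. Other named genes (those called lower, Mmp15, Timp2, the neighbours of the cluster and marker genes) were chosen after their values were seen. Nearest genes were the 3 with the highest Pearson correlation of log2 (CPM + 0.5), leaving out predicted genes.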

Additional observations from a re-analysis of the deposited data

How the results depend on the processing

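Alternatives were DESeq2's size factors or upper-quartile scaling in edgeR, no filter on low counts, DESeq2, limma-voom, a term for replicate number, a term for high or low Dbp, only the libraries of 1 Dbp class, only the groups compared, leaving out each library, and, for shares among the MMPs, no division by length. Scaling moved the median of all genes by at most 0.0265 on the log2 scale. Timp1 and Mmp9 passed in Vehicle against Control under every alternative run. The number of the 10 genes called in Vehicle against Control (8) was 4 in high-Dbp and 3 in low-Dbp libraries, each with 1 library in one arm. In UCS against Control (6) it was 0 in low-Dbp libraries, where 1 library stands against 1 in a fit with 1 residual degree of freedom; the log2 fold changes of those 6 genes stayed above 0 there (1.04 for Mmp2, 1.2 for Mmp3, 1.13 for Mmp9, 1.66 for Mmp12, 2.47 for Mmp13 and 1.86 for Timp1). With limma-voom it was 3 in UCPRP against Control (6), losing Mmp9 (adjusted p = 0.0882), Mmp12 and Mmp13 (0.0937), and UCS lost Mmp9 (0.107) and Mmp12. Against Vehicle (0 called) DESeq2 called 1 in UCS, 3 in UCPRP and 4 in the mean of both. Leaving out a library gave 7 to 8, 4 to 7 and 4 to 6 against Control for Vehicle, UCS and UCPRP, and 0, 0 to 2 and 0 to 3 against Vehicle for UCS, UCPRP and the mean.

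Over all genes, 2661 calls in Vehicle against Control became 574 in high-Dbp and 154 in low-Dbp libraries. For UCS against Control 1753 became 1027 and 0, and 1089 without UCS 3. For UCPRP against Control 1671 became 1009 in high-Dbp libraries, 1009 without UCPRP 2 and 998 without UCPRP 3. From 0, DESeq2 called 13 for UCS, 145 for UCPRP and 154 for the mean against Vehicle, and edgeR 37, 195 and 261 without Vehicle 3.

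Replicate numbers are not known to pair the libraries. Of 18 same-numbered pairs 7 had deviations correlated above 0.1 (r from -0.62 to 0.54). With replicate number as a block the calls were 8, 5 and 5 against Control for Vehicle, UCS and UCPRP, losing Mmp12 in UCS (adjusted p = 0.0501) and UCPRP (0.0674), and 0 in the comparisons with Vehicle.

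These genes, none called, changed sign. In high-Dbp libraries Mmp10 was at -3.51 in Vehicle against Control, 2.21, 2.31 and 2.26 against Vehicle (UCS, UCPRP, mean) and 0.10 in UCPRP against UCS; Timp3 was at -0.24, -0.20 and -0.22 against Vehicle and 0.043 in UCPRP against UCS; Mmp14 was at -0.064 in UCS against Control, Mmp8 at 0.37 in UCS against Vehicle and Timp1 at -0.22 in UCPRP against UCS. In low-Dbp libraries Mmp10 was at 1.56 in UCS against Control. In UCPRP against UCS, Mmp9 was at 0.16 (limma-voom) and 0.012 (replicate block), Mmp10 at 0.000512 (no filter) and 0.29 (Dbp term), and Mmp12 at 0.093 (Dbp term). Leaving out a library gave ranges across 0 for Mmp10 against Control (Vehicle -0.053 to 2.76, UCS -1.19 to 0.26, UCPRP -2.48 to 0.23), Mmp14 in UCS against Control (-0.023 to 0.22) and Timp3 against Vehicle (UCS -0.055 to 0.22, UCPRP -0.14 to 0.16, mean -0.087 to 0.19). In UCPRP against UCS they were -0.42 to 0.084 for Mmp3, -0.44 to 0.24 for Mmp9, -1.78 to 0.58 for Mmp10, -0.44 to 0.33 for Mmp12, -0.071 to 0.14 for Mmp14, -0.23 to 0.48 for Timp1 and -0.23 to 0.037 for Timp3. The cause was not tested.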
